A study of Mus musculus with 12 samples.

Results

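The cap-binding side of translation initiation is described here through 10 genes, *Eif4e*, *Eif4a1*, *Eif4a2*, *Eif4b*, *Eif4h*, *Eif4g1*, *Eif4g2*, *Eif4g3*, *Eif4ebp1* and *Eif4ebp2*. They were matched by symbol among the 54146 genes of each library, and each matched 1 gene identifier. The cells were C57BL/6 mouse embryonic stem cells (mESCs) with floxed *Prdm10* alleles and a *Rosa26*-CreERT2 transgene, which expresses a Cre recombinase that enters the nucleus when 4-hydroxytamoxifen (OHT) is present. All 4 groups carried both alterations and were kept on gelatin in serum with LIF. They had 24 h of either 50 nM OHT or the ethanol vehicle (EtOH) and were collected at Day 2 or Day 4, with 3 libraries of total RNA in each of Day 2 EtOH, Day 2 OHT, Day 4 EtOH and Day 4 OHT. There was no group without CreERT2 and none with OHT on unfloxed alleles, so an action of OHT or of active Cre cannot be told apart from that of the deletion. The study's methods describe repeats in general as independent biological ones, but the labels do not say how the 3 libraries of a group were separated. P-values measure the spread between these samples.

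A eukaryotic mRNA carries a methylated cap at its 5′ end. eIF4E binds this cap, eIF4G is the scaffold that ties eIF4E to the RNA helicase eIF4A, and the assembled complex, eIF4F, brings in the small ribosomal subunit through eIF3. The 4E-BPs compete with eIF4G for eIF4E, and the kinase complex mTORC1 releases that block by phosphorylating them. The comparisons ask how the mRNA of these factors stood after the *Prdm10* alleles were floxed out, PRDM10 being a zinc finger transcription factor. They measure mRNA and say nothing of protein or of phosphorylation.

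Libraries held between 35017667 and 41409992 expected counts. The gene-level count of *Prdm10* itself was higher in the libraries labelled OHT, with normalised counts of 2080, 2225 and 2213 against 767, 821 and 815 at Day 2, and of 1982, 2090 and 1965 against 821, 875 and 911 at Day 4. A count over the whole gene does not show the loss of 1 exon, and a higher count is not what a loss of transcript would give, so OHT and EtOH below name the label of a library. The study followed the floxed exon and the PRDM10 protein in OHT-treated cells by other assays, which were not analysed here. All 10 mESC markers tested (*Pou5f1*, *Nanog*, *Sox2* and others) were above 1 TPM (RSEM's length-scaled measure of a transcript's share of a library) in every library, and their sum ran from 2218 to 2485 TPM in the other groups and from 2564 to 2665 TPM in Day 4 OHT. None of 7 fibroblast markers was above 1 TPM in every library and none was at 0 throughout. They summed to between 1.07 and 1.62 TPM in Day 4 OHT and between 2.38 and 3.39 TPM elsewhere, and the part of either list in the Day 4 results was not tested. The 11 extraembryonic and germ layer markers summed to between 3.49 and 4.18 TPM, again with none above 1 TPM in every library.

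Sequence upstream of the genes was read from RefSeq promoter entries (GRCm38.p6), which held 10 annotated starts for 8 of the genes, *Eif4ebp1* and *Eif4g2* being the others. The E-box CACGTG, the letters bound by MYC and related factors, was searched because *Eif4e* is a textbook MYC target. It was present in the 250 bases before 4 of these 10 starts, 1 each in 4 genes, against 6.03% of all 32544 promoters. The 30-base windows around it are given 5′ to 3′ on the strand of the gene with the E-box in capitals.
Eif4e, chr3:138527028-138527057, plus strand: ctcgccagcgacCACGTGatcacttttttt
Eif4e, chr3:138527192-138527221, plus strand: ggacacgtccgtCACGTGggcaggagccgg
Eif4h, chr5:134639488-134639517, minus strand: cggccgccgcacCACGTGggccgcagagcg
Eif4a1, chr11:69672595-69672624, minus strand: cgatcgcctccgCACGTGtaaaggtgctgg
Eif4g1, chr16:20672661-20672690, plus strand: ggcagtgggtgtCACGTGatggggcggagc
The 2 *Eif4e* E-boxes began 228 and 64 bases before an internal start, and there and in *Eif4h*, 96 bases before the start, the window touched an exon of another annotated transcript of the gene. The *Eif4g1* E-box, 54 bases before a start, lay in an intron of a longer transcript, and that of *Eif4a1*, 189 bases before the start, lay upstream of every annotated exon. The same windows were searched for letters taken from a PRDM10 probe, since *Prdm10* is the deleted gene. The study's probes for gel shift assays differ at 8 bases, shown here in capitals.
WT probe: ctggcacagTGGTcgcGCCCggcccgcc
MUT probe: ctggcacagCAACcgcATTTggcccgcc
The bases changed between them spell TGGTNNNGCCC. On either strand, 398 of the 32544 promoters held these letters before the start and none of the 10 entries of these genes did. A match or its lack is a description of the letters in these windows. *Eif4a1* was the only 1 of the 10 genes on the study's list of genes with PRDM10 bound.

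Per length, *Eif4a1* was by far the most abundant of the mRNAs and *Eif4g3* and *Eif4ebp2* the scarcest. In Day 2 EtOH the level was 1553 ± 9.85 TPM for *Eif4a1* (SD, n = 3), 394.0, 397.0 and 413.0 TPM in the 3 libraries for *Eif4a2* and 212.0 ± 11.5 TPM for *Eif4g2*. Below these stood *Eif4b* at 190.0 ± 4.14 TPM, *Eif4ebp1* at 165.0 ± 5.11 TPM, *Eif4e* at 164.0 ± 6.09 TPM, *Eif4g1* at 136.0 ± 2.74 TPM and *Eif4h* at 127.0 ± 2.91 TPM. *Eif4ebp2* at 7.13 ± 0.836 TPM and *Eif4g3* at 3.68 ± 0.397 TPM closed the order. Neighbours in this order were separated in all 3 libraries except *Eif4ebp1* and *Eif4e*, whose ranges overlapped. The order of the first 3 genes was the same in all 4 groups. *Eif4ebp1* stood in 4th place in Day 4 EtOH, at 196.0 ± 4.57 TPM, and in 7th place in Day 4 OHT, at 137.0 ± 2.66 TPM. In Day 4 OHT the ranges of *Eif4ebp2* and *Eif4g3* overlapped, at 5.83 ± 0.69 TPM and 5.59 ± 0.791 TPM.

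**Figure D1:**
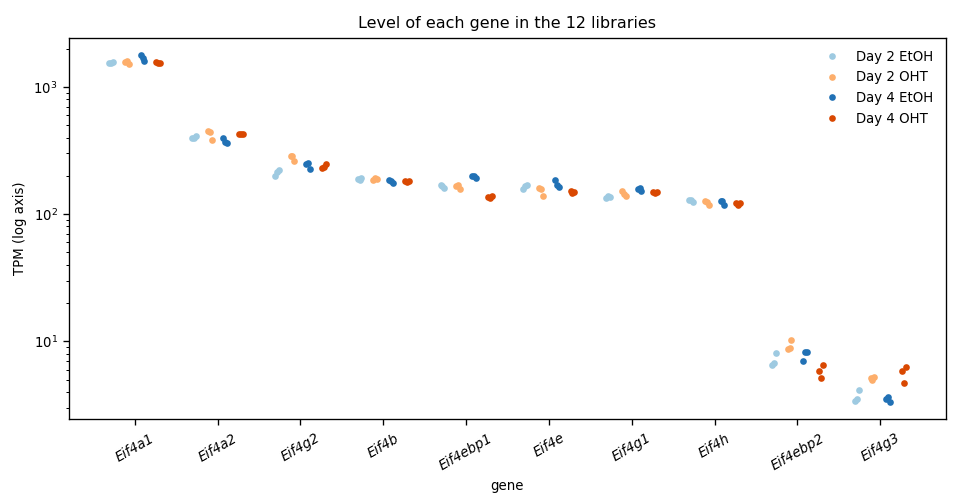
Level of each of the 10 genes in TPM on a log axis, with 1 point for each of the 12 libraries coloured by group. *Eif4a1* lies between 1510 and 1785 TPM and *Eif4ebp2* and *Eif4g3* lie between 3.33 and 10.3 TPM.

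The 10 genes split between higher and lower values in OHT at both days. At Day 2, 3 of 10 were called higher (*Eif4g2*, *Eif4g3*, *Eif4ebp2*) and 3 lower (*Eif4e*, *Eif4h*, *Eif4ebp1*), where a call is a DESeq2 Wald test with a Benjamini-Hochberg adjusted p under 0.05 and a mean normalised count above 100. Of all 11644 genes tested, 9.17% were called higher and 10.6% lower, 19.8% in all. At Day 4, 2 of 10 were called higher (*Eif4a2*, *Eif4g3*) and 4 lower (*Eif4e*, *Eif4a1*, *Eif4ebp1*, *Eif4ebp2*), against 23.5% and 21.7%, 45.1% in all, of 11555 genes. The shares called higher and lower at Day 4 thus lay on either side of the background. This background, here and below, was not matched for count. Its shares are therefore not those of genes as abundant as most of the 10, in which smaller changes can be called. The 10 genes were chosen with earlier results of these data known. No change reached 2-fold. The median log2 fold change over the 10 genes was -0.065 at Day 2 and -0.047 at Day 4, beside -0.028 and 0.0063 over all genes tested. These are values from bulk RNA, in which fewer cells of a type and less RNA per cell cannot be told apart.

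**Figure D2:**
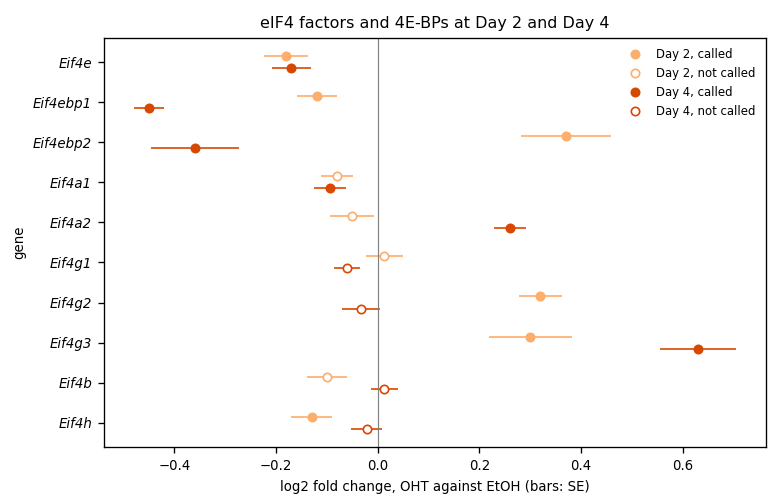
Log2 fold change of OHT against EtOH with its SE for each gene, at Day 2 (light) and Day 4 (dark), with filled points for called genes. *Eif4g3* lies to the right of 0 and *Eif4e* to the left on both days, *Eif4ebp2* changes sides, and the values span -0.45 to 0.63.

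*Eif4e* (chr3:138526179-138559696), the cap-binding subunit, was lower in OHT by about the same amount on both days. Its normalised counts at Day 2 were 9695, 9313 and 9289 in EtOH and 8415, 8523 and 7938 in OHT. At Day 4 they were 9338, 8838 and 8548 in EtOH and 8131, 7974 and 7746 in OHT. The groups did not overlap on either day, although in TPM they overlapped at Day 2 (164.0 ± 6.09 in EtOH and 152.0 ± 11.8 in OHT). The log2 fold change was -0.18 (SE 0.043, adjusted p = 3.17e-04) at Day 2 and -0.17 (SE 0.038, adjusted p = 8.22e-05) at Day 4, a fold of 0.88 and 0.891. Between the days the effect differed by 0.022, with a 95% interval from -0.088 to 0.13. The 2 days do not share control libraries.

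*Eif4ebp1* (chr8:27260329-27276674), the more abundant 4E-BP mRNA in these cells, showed the clearest fall of the 10 at Day 4. Its Day 4 normalised counts were 10637, 10693 and 10707 in EtOH and 7872, 7797 and 7803 in OHT. Each group was tight and the gap between them was many times the spread within either. It had a log2 fold change of -0.45 (SE 0.030, adjusted p = 2.97e-49), a fold of 0.732. At Day 2 the counts were 10080, 9674 and 9503 in EtOH and 8862, 9002 and 9040 in OHT, which did not overlap, with a log2 fold change of -0.12 (SE 0.039, adjusted p = 0.0186). This Day 2 call was lost with transcript lengths as offsets (-0.092, adjusted p = 0.219) and with total counts as scaling (-0.083, adjusted p = 0.163), and in TPM the 2 groups stood at 165.0 ± 5.11 in EtOH and 164.0 ± 6.72 in OHT. It was also lost without EtOH replicate 1 (adjusted p = 0.134), EtOH replicate 2 (0.0655), OHT replicate 1 (0.0845) or OHT replicate 2 (0.0626). In EtOH *Eif4ebp1* rose from Day 2 to Day 4 by 0.13 on the log2 scale (SE 0.035, adjusted p = 0.00166), so the Day 4 comparison set a lower OHT level against a higher EtOH level. The Day 4 effect differed from that at Day 2 by -0.33 (SE 0.040, adjusted p = 2.39e-14).

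*Eif4ebp2* (chr10:61428491-61452661), which encodes the second 4E-BP, moved in opposite directions at the 2 days. Its Day 2 normalised counts were 1185, 1299 and 1473 in EtOH and 1553, 1608 and 1954 in OHT, so every OHT library was above every EtOH library. Its Day 4 counts were 1174, 1426 and 1410 in EtOH and 1005, 937.0 and 1192 in OHT, where the highest OHT library passed the lowest EtOH library. The log2 fold change was 0.37 (SE 0.089, adjusted p = 6.24e-04) at Day 2 and -0.36 (SE 0.087, adjusted p = 2.52e-04) at Day 4. With all 12 libraries in 1 fit both were still called, with weaker adjusted p-values of 0.0358 at Day 2 and 0.0296 at Day 4. The difference between the days was -0.73 (SE 0.19, adjusted p = 0.0015). Without Day 2 EtOH replicate 1 the Day 2 value was 0.29 with an adjusted p of 0.0526. *Eif4ebp2* made up 4.15% ± 0.584 (SD, n = 3) of the summed TPM of both 4E-BPs in Day 2 EtOH, 5.38% ± 0.676 in Day 2 OHT, 3.84% ± 0.37 in Day 4 EtOH and 4.08% ± 0.39 in Day 4 OHT. *Eif4ebp1* therefore set the level of their sum.

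In TPM, the ratio of 4E-BP mRNA to *Eif4e* mRNA within a library was below 1 only in Day 4 OHT when taken as a group mean. In normalised counts, which are not scaled by length, the summed 4E-BPs were above *Eif4e* in every group. The Day 4 OHT means were 7824 for *Eif4ebp1*, 1045 for *Eif4ebp2* and 7951 for *Eif4e*. The ratio of summed 4E-BP TPM to *Eif4e* TPM was 1.12, 1.03 and 0.992 in Day 2 EtOH and 1.08, 1.14 and 1.21 in Day 2 OHT. It was 1.1, 1.21 and 1.23 in Day 4 EtOH and 0.934, 0.953 and 0.982 in Day 4 OHT. The Day 4 groups did not overlap and the Day 2 groups did. OHT minus EtOH was 0.0922 at Day 2 (exact permutation test, two-sided, p = 0.2) and -0.225 at Day 4 (exact permutation test, two-sided, p = 0.1). With 3 libraries against 3 the smallest p this test can give is 0.1.

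The helicase genes differed in direction at Day 4. *Eif4a1* (chr11:69666936-69672423), the main eIF4A gene in these cells, had Day 2 normalised counts of 118646, 116455 and 115627 in EtOH and 109086, 111277 and 111318 in OHT. Its Day 4 counts were 121693, 113641 and 112606 in EtOH and 109694, 108971 and 107928 in OHT. In normalised counts OHT lay below EtOH without overlap on both days, by a small amount. In TPM the Day 2 groups overlapped and the OHT mean was the higher, at 1577, 1589 and 1510 in OHT against 1551, 1544 and 1564 in EtOH. Its log2 fold change was -0.080 (SE 0.032, adjusted p = 0.0689) at Day 2, which was not called, and -0.094 (SE 0.031, adjusted p = 0.00959) at Day 4. Without Day 4 OHT replicate 3 the Day 4 value was -0.086 with an adjusted p of 0.0535. The Day 2 value passed without Day 2 OHT replicate 3 (-0.084, adjusted p = 0.0351) and with all 12 libraries in 1 fit (-0.081, adjusted p = 0.0348). The 2 days differed by -0.011, with a 95% interval from -0.093 to 0.071.

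*Eif4a2* (chr16:23107444-23114136), the paralogue of *Eif4a1*, had Day 4 normalised counts of 20747, 19398 and 19457 in EtOH and 23780, 23905 and 23558 in OHT. All 3 OHT libraries were above all 3 EtOH libraries, and the log2 fold change was 0.26 (SE 0.031, adjusted p = 1.10e-14). At Day 2 the counts were 23986, 23306 and 23564 in EtOH and 23006, 23874 and 21516 in OHT, which overlapped, and the log2 fold change was -0.050 with a 95% interval from -0.13 to 0.034. In EtOH the gene fell by 0.25 on the log2 scale from Day 2 to Day 4 (SE 0.035, adjusted p = 7.96e-12). The Day 4 OHT mean of 23748 normalised counts was thus near the Day 2 EtOH mean of 23619. In these counts the Day 4 EtOH mean of 19867 was the one that stood apart. In TPM the Day 4 EtOH libraries, at 397.0, 371.0 and 361.0, were below Day 4 OHT, at 429.0, 423.0 and 428.0. They overlapped Day 2 EtOH, at 394.0, 397.0 and 413.0, and Day 2 OHT, at 449.0, 439.0 and 384.0. The Day 4 effect was above that at Day 2 by 0.31 (SE 0.053, adjusted p = 2.11e-07).

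*Eif4a1* made up 79.5% ± 0.32 (SD, n = 3) of the TPM of the pair in Day 2 EtOH, 78.6% ± 0.979 in Day 2 OHT, 81.8% ± 0.11 in Day 4 EtOH and 78.4% ± 0.053 in Day 4 OHT. The ratio of *Eif4a1* TPM to *Eif4a2* TPM was 4.49, 4.53 and 4.46 in Day 4 EtOH and 3.65, 3.62 and 3.63 in Day 4 OHT. This was a difference of -0.859 (exact permutation test, two-sided, p = 0.1). At Day 2 the ratio was 3.94, 3.89 and 3.79 in EtOH and 3.51, 3.62 and 3.93 in OHT, which overlapped (difference -0.186, exact permutation test, two-sided, p = 0.3).

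**Figure D3:**
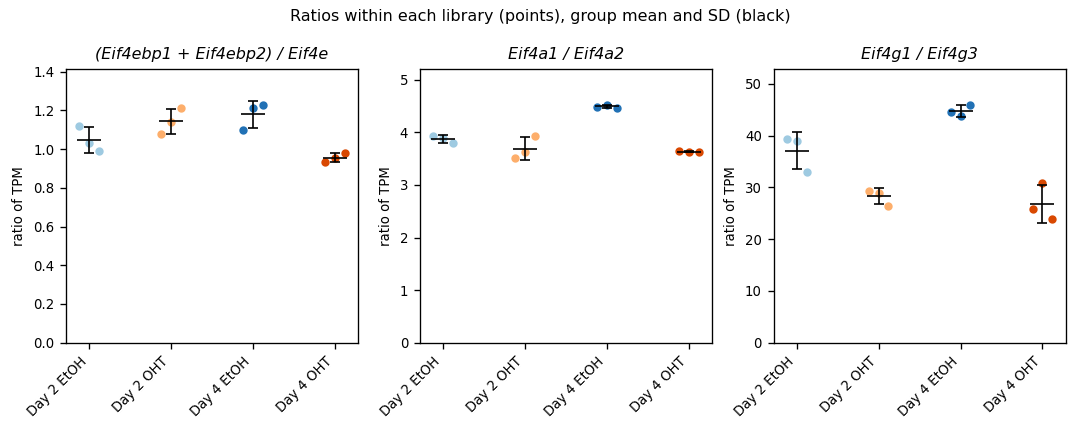
Ratios of TPM within each library (points) for the 2 4E-BPs over *Eif4e*, *Eif4a1* over *Eif4a2* and *Eif4g1* over *Eif4g3*, with the mean and SD of each group in black. In Day 4 OHT each ratio lies below all Day 4 EtOH libraries, by -0.225, -0.859 and -18.0 on average.

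Among the scaffolds, the abundant *Eif4g1* stayed close to EtOH in normalised counts while its scarce paralogue *Eif4g3* was higher in OHT on both days. *Eif4g3* (chr4:137993022-138208508), which encodes eIF4GII, had Day 2 normalised counts of 734.0, 803.0 and 858.0 in EtOH and 954.0, 947.0 and 1043 in OHT. At Day 4 the counts were 706.0, 730.0 and 771.0 in EtOH and 1194, 1060 and 1178 in OHT. OHT was above EtOH in every library on both days. The log2 fold change was 0.30 (SE 0.082, adjusted p = 0.00339) at Day 2 and 0.63 (SE 0.074, adjusted p = 2.54e-16) at Day 4, the largest size among the 10 genes at Day 4. The difference between the days was 0.34 (SE 0.10, adjusted p = 0.00751), a call lost with transcript lengths as offsets (0.31, adjusted p = 0.0934). Without Day 2 EtOH replicate 1 the Day 2 value was 0.24 with an adjusted p of 0.0798. The effective length of *Eif4g3* ran from 4454 to 4748 bases in Day 2 EtOH and from 4208 to 4321 bases in Day 2 OHT. Within Day 4 EtOH alone it ran from 4627 to 5240 bases, and single transcripts were not examined. The part of this length in the count was not tested beyond the fit with lengths as offsets, in which *Eif4g3* was still called at both days.

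*Eif4g1* (chr16:20668313-20692884), the main eIF4G scaffold, had Day 4 normalised counts of 29841, 30319 and 29636 in EtOH and 28948, 29025 and 28307 in OHT. The groups did not overlap, yet the log2 fold change of -0.060 (SE 0.026, adjusted p = 0.0653) was not called. It was called without Day 4 EtOH replicate 1 (-0.061, adjusted p = 0.0386). At Day 2 the value was 0.013, with a 95% interval from -0.059 to 0.085. In TPM the Day 2 groups did not overlap, with OHT higher at 152.0, 143.0 and 140.0 against EtOH at 133.0, 138.0 and 136.0. The ratio of *Eif4g1* TPM to *Eif4g3* TPM was 37.1 ± 3.55 (SD, n = 3) in Day 2 EtOH, 28.2 ± 1.52 in Day 2 OHT, 44.8 ± 1.14 in Day 4 EtOH and 26.8 ± 3.68 in Day 4 OHT. The groups were apart on both days, by -8.83 and by -18.0 (exact permutation test, two-sided, p = 0.1 for each). *Eif4g3* nonetheless stayed at 3.64% ± 0.46 of the summed TPM of the pair in Day 4 OHT, from 2.18% ± 0.0542 in Day 4 EtOH.

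*Eif4g2* (chr7:111067750-111083030) encodes DAP5, an eIF4G relative that lacks the eIF4E-binding part and serves initiation without the cap. It was higher in OHT at Day 2 and not at Day 4. Its Day 2 normalised counts were 28127, 29477 and 30903 in EtOH and 36739, 36763 and 36776 in OHT, a clear gap. This gave a log2 fold change of 0.32 (SE 0.042, adjusted p = 2.34e-12). At Day 4 the counts were 32046, 32913 and 30574 in EtOH and 30510, 29860 and 33123 in OHT, which overlapped, and the log2 fold change was -0.033 with a 95% interval from -0.11 to 0.042. The difference between the days was -0.35 (SE 0.060, adjusted p = 2.11e-07). In EtOH the gene rose by 0.11 from Day 2 to Day 4 (SE 0.040, adjusted p = 0.0245), with overlapping groups, a call lost without Day 2 EtOH replicate 1 (0.074, adjusted p = 0.214), Day 2 EtOH replicate 2 (0.11, 0.093), Day 4 EtOH replicate 1 (0.11, 0.051) or Day 4 EtOH replicate 2 (0.082, 0.198).

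Neither helicase cofactor was called at Day 4. *Eif4h* (chr5:134619721-134639490), which stimulates eIF4A, had Day 2 normalised counts of 13433, 12998 and 12349 in EtOH and 11873, 11800 and 11766 in OHT. These did not overlap, although in TPM they did, at 129.0, 128.0 and 124.0 in EtOH and 127.0, 125.0 and 119.0 in OHT. The log2 fold change was -0.13 (SE 0.040, adjusted p = 0.0125). The call was lost without Day 2 EtOH replicate 1 (adjusted p = 0.124), EtOH replicate 2 (0.0882) or OHT replicate 2 (0.0614), with total counts as scaling (-0.092, adjusted p = 0.125) and with a trend on gene length removed (-0.10, adjusted p = 0.0514). At Day 4 the value was -0.022, with a 95% interval from -0.081 to 0.037.

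*Eif4b* (chr15:102073773-102097173), which also stimulates eIF4A, had Day 2 normalised counts of 32916, 32211 and 32732 in EtOH and 29398, 30310 and 31797 in OHT. They did not overlap, although in TPM they did, at 188.0, 187.0 and 194.0 in EtOH and 187.0, 191.0 and 188.0 in OHT. The log2 fold change of -0.10 (SE 0.039, adjusted p = 0.0686) was not called. It was called without Day 2 OHT replicate 3 (-0.13, adjusted p = 0.00172), with a trend on gene length removed (-0.12, adjusted p = 0.017) and with all 12 libraries in 1 fit (-0.10, adjusted p = 0.0072). At Day 4 the value was 0.013, with a 95% interval from -0.038 to 0.063. The difference between the days was 0.11 (SE 0.041, adjusted p = 0.0314) and was called in 3 of the 12 fits that left out 1 library.

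**Figure D4:**
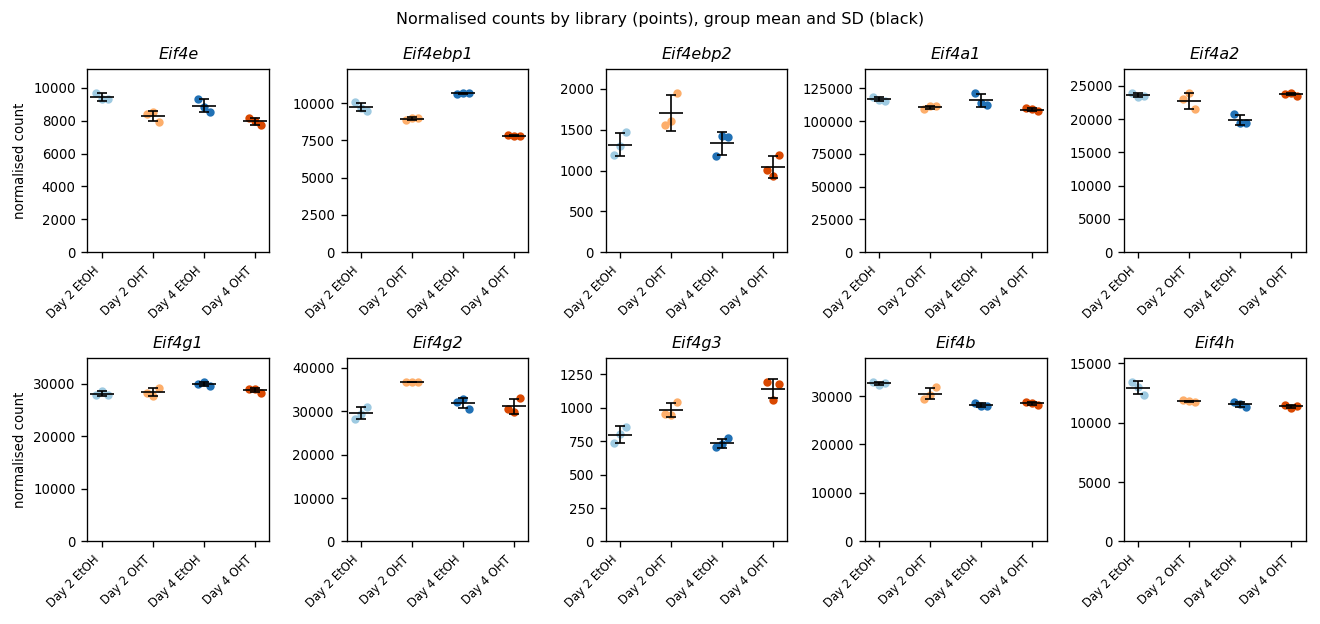
Normalised counts of each gene, with 1 point per library and the mean and SD of each group in black on axes that start at 0. *Eif4ebp1* is lowest in Day 4 OHT, *Eif4g2* highest in Day 2 OHT, *Eif4a2* lowest in Day 4 EtOH and *Eif4g3* higher in both OHT groups.

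Of the 10 genes, 3 had a called positive and 3 a called negative difference between the days, against 18.9% and 13.6%, 32.5% in all, of 11616 genes tested. Positive were *Eif4a2*, *Eif4g3* and *Eif4b*, and negative were *Eif4g2*, *Eif4ebp1* and *Eif4ebp2*. The EtOH libraries differed between the days as well. From Day 2 to Day 4, 3 of 10 were called higher (*Eif4g1*, *Eif4g2*, *Eif4ebp1*) and 3 lower (*Eif4a2*, *Eif4b*, *Eif4h*), against 20.7% and 20.6%, 41.3% in all, of 11572 genes. *Eif4b* fell by 0.21 (SE 0.029, adjusted p = 5.75e-12) and *Eif4h* fell by 0.17 (SE 0.038, adjusted p = 8.52e-05) on the log2 scale. *Eif4g1* rose by 0.088 (SE 0.030, adjusted p = 0.0134), a call lost without Day 2 EtOH replicate 1 (adjusted p = 0.0862) or Day 4 EtOH replicate 2 (0.114). This comparison uses the same EtOH libraries as the OHT comparisons.

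Of 38 other initiation genes, 36 had a mean count high enough to be called, with 6 higher and 8 lower in OHT at Day 2 and 7 higher and 13 lower at Day 4. The shares over all genes were 9.17% higher and 10.6% lower at Day 2, and 23.5% higher and 21.7% lower at Day 4. The cap-binding relative *Eif4e3* and the third 4E-BP, *Eif4ebp3*, were below the minimum. The median log2 fold change over the 36 was -0.053 at Day 2 and -0.065 at Day 4. Of the 12 genes of mTORC1 and MNK signalling, the kinases upstream of the 4E-BPs and of eIF4E, 4 were higher and 1 lower at Day 2, and 3 were higher and 3 lower at Day 4. Of the 5 poly(A)-binding proteins and their partners, 1 was higher and 1 lower at Day 2, and 1 was higher and 2 lower at Day 4. Of the 15 genes of eIF1, eIF2, eIF2B, eIF5 and eIF6, none was higher and 4 were lower at Day 2, and 3 were higher and 6 lower at Day 4. Of the 4 testable eIF4E and eIF4A relatives, 1 was higher and 2 lower at Day 2, and 2 were lower at Day 4.

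*Mlst8*, a subunit of mTORC1 and mTORC2, stood far from the rest of these genes. Its normalised counts were 627.0, 615.0 and 576.0 in EtOH and 156.0, 172.0 and 168.0 in OHT at Day 2, and 659.0, 677.0 and 673.0 in EtOH and 166.0, 130.0 and 139.0 in OHT at Day 4. The log2 fold change was -1.88 (SE 0.11, adjusted p = 3.87e-58) at Day 2 and -2.21 (SE 0.11, adjusted p = 1.09e-80) at Day 4. *Mlst8* and *Akt1s1*, which encodes the mTORC1 inhibitor PRAS40, were the 2 of the 38 genes on the study's list of genes with PRDM10 bound. Unlike *Mlst8*, *Akt1s1* was not called at Day 2 (0.0062, SE 0.076, adjusted p = 0.977) and was higher at Day 4 (0.19, SE 0.069, adjusted p = 0.0179). *Mtor*, the kinase of the complex, was higher at Day 4 (0.27, SE 0.037, adjusted p = 3.45e-12). *Tsc2*, whose product restrains mTORC1, was higher at Day 2 (0.26, SE 0.058, adjusted p = 2.63e-04) and at Day 4 (0.20, SE 0.056, adjusted p = 0.0013). *Mknk1*, a kinase that phosphorylates eIF4E, was lower at Day 4 (-0.29, SE 0.11, adjusted p = 0.0306).

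The remaining genes with the largest called changes at Day 4 were spread over the other steps of initiation. *Eif4e2*, a cap-binding relative of eIF4E with repressor function, was lower by a log2 fold change of -0.27 (SE 0.033, adjusted p = 1.97e-15), after -0.13 at Day 2 (SE 0.044, adjusted p = 0.0196). *Paip2b*, an inhibitor of poly(A)-binding protein, was at -0.33 (SE 0.043, adjusted p = 2.70e-13), and *Paip1*, its stimulatory counterpart, at 0.30 (SE 0.046, adjusted p = 1.73e-09) after -0.21 at Day 2 (SE 0.067, adjusted p = 0.0166). Of the eIF2B subunits, the exchange factor of eIF2, *Eif2b1* was lower (-0.27, SE 0.051, adjusted p = 1.42e-06) and *Eif2b5* higher (0.22, SE 0.033, adjusted p = 6.13e-10). *Eif5*, which encodes the GTPase activator of eIF2, was higher (0.19, SE 0.029, adjusted p = 4.29e-10).

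**Figure D5:**
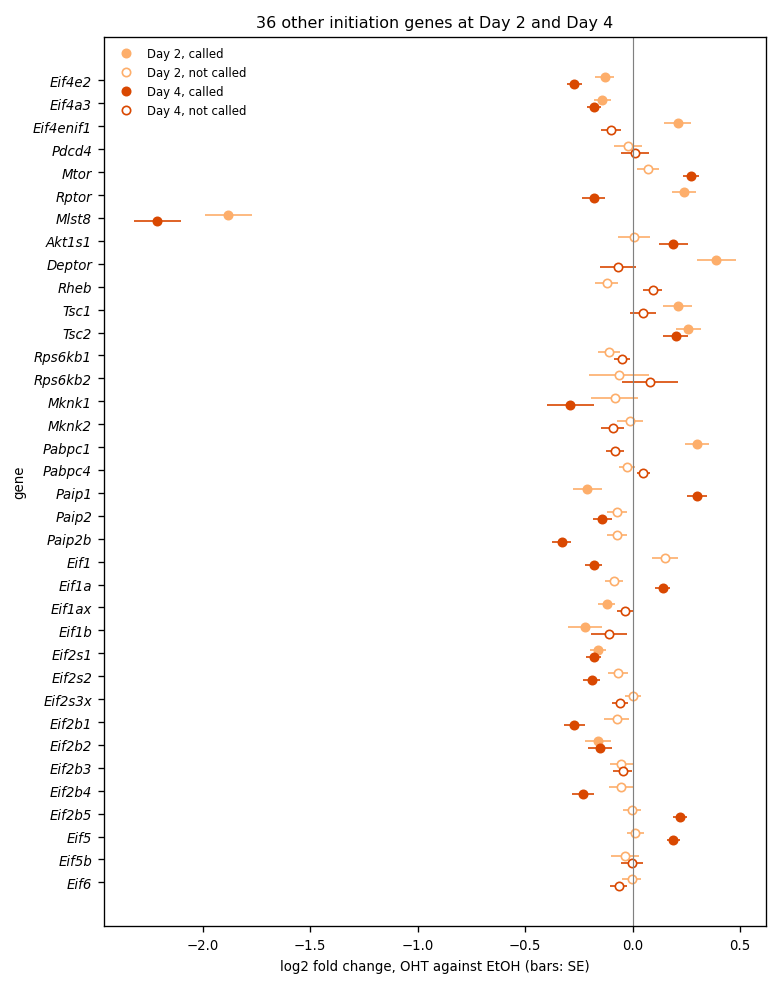
Log2 fold change of OHT against EtOH with its SE for the 36 other initiation genes, at Day 2 (light) and Day 4 (dark), with filled points for called genes. *Mlst8* lies at -1.88 and -2.21, and the other genes lie between -0.33 and 0.39.

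The gene bodies hold small RNA genes, mostly snoRNAs, small RNAs that guide chemical changes of other RNAs, and of the 4 snoRNAs with a mean normalised count above 100, 3 were called higher in OHT at Day 4, where 23.5% of all genes were. Of the 16 annotated genes that overlap a gene of the 10, 10 were snoRNAs and 7 of the 16 were at 0 in every library. Within *Eif4a1*, the snoRNA *Gm22988* had a mean of 2031 ± 216.0 normalised counts (SD, n = 3) in Day 4 EtOH and 2529 ± 58.5 in Day 4 OHT, a log2 fold change of 0.31 (SE 0.063, adjusted p = 5.55e-06), while the host was at -0.094. Within *Eif4a2*, *Gm26447* had 1047 ± 146.0 and 1300 ± 63.7 normalised counts, a log2 fold change of 0.31 (SE 0.083, adjusted p = 9.09e-04) beside 0.26 for the host. Within *Eif4g2*, *Gm23262* had 511.0 ± 39.3 and 616.0 ± 4.0 normalised counts, a log2 fold change of 0.27 (SE 0.089, adjusted p = 0.0104) beside -0.033 for the host. None of these 3 was called at Day 2. They were named after their values were seen, being the snoRNAs of the 10 genes called at Day 4. Reads of a snoRNA and of its host's unspliced RNA lie at the same place, so the 2 cannot be fully told apart. *Rfc4*, on the opposite strand, overlaps the end of *Eif4a2* and was at -0.020 at Day 4 (SE 0.050, adjusted p = 0.823).

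Over the 12 libraries, the genes most like *Eif4ebp1* among 11615 others were *Cabp1* (Pearson r of log2 normalised counts 0.993), *Pcolce* (0.993) and *Herpud1* (0.99). Those most like *Eif4a1* were *Psmd1* (0.963), *Trmt5* (0.962) and *Frg1* (0.947). The libraries fall into the 4 groups of the study, which these values share, so they are a description of like patterns.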

How the data were processed

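RNA-seq of 12 mESC libraries was used, grouped by the treatment and day in the labels. The authors aligned reads with STAR 2.6.0c to GRCm38.p6, and deposited an expected count and a TPM value per gene from RSEM with GENCODE annotation, beside DESeq2 1.22.2 tables, from which symbols alone were taken. Those tables also hold the authors' fold changes and p-values, which were not used. RSEM shares a read between genes it fits, and its posterior SD was at most 105.0 counts for *Eif4a1* and at most 5.51 for the other 9 genes. The expected counts, rounded to integers, were fitted with DESeq2 1.42.0 (R 4.3.3) on all genes. OHT was compared with EtOH on the 6 libraries of a day, Day 4 with Day 2 on the 6 EtOH libraries, and the difference between the days as an interaction in all 12. Calls needed an adjusted p under 0.05 and a mean normalised count above 100. Ratios were tested by exact permutation. The Day 2 and between-day fits were run on simulated counts with planted changes larger than most of those reported here. That run does not show how well small changes are recovered. Alternatives were edgeR 4.0.16, other scaling factors, length corrections, a replicate block, no minimum count and each library left out. Correlations used log2(normalised count + 1). All 10 genes are named, with the 5 highest and 5 lowest called log2 fold changes at Day 4 among the other initiation genes. Genes and lists were chosen with earlier results of these data known. Positions are from GENCODE for GRCm38, by gene identifier. Depth was alike across libraries, between 35017667 and 41409992 expected counts. Protein sequences were not used here.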

Additional observations from a re-analysis of the deposited data

Results flagged for a closer look

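For 6 of the 10 genes the OHT effect at Day 4 differed from that at Day 2 by the interaction test. The difference in log2 fold change was 0.31 for *Eif4a2*, 0.11 for *Eif4b*, -0.35 for *Eif4g2*, 0.34 for *Eif4g3*, -0.33 for *Eif4ebp1* and -0.73 for *Eif4ebp2*. *Eif4ebp2* was the only 1 of them with called changes in opposite directions at the 2 days. The EtOH level itself moved between the days for *Eif4a2*, *Eif4b*, *Eif4g2* and *Eif4ebp1*, and Day 4 was not tested against Day 2 in OHT. For *Eif4a2* the EtOH mean went from 23619 to 19867 normalised counts and the OHT mean from 22799 to 23748. The cause of these differences was not tested.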

How the results depend on the processing

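Most calls at Day 4 did not depend on the processing and many at Day 2 did. Over all alternatives, 146 of 150 values at Day 4 and 120 of 150 at Day 2 kept their direction and their side of the threshold, as did 178 of 200 for the difference between the days and 125 of 140 for Day 4 against Day 2 in EtOH. These totals include genes that were not called. They also include the setting without a minimum count, which could change nothing because every gene was above the minimum. Among the Day 2 calls, *Eif4ebp1* kept its call in 6 of 15 alternatives, *Eif4h* in 9 and *Eif4g2* in all 15. The number of genes called lower at Day 2, 3 as reported, was 1 with total counts as scaling, 1 with the replicate block and the length trend removed, where that gene was *Eif4b* (adjusted p = 0.0468), and 5 with all 12 libraries in 1 fit. With total counts the calls over all genes at Day 2 were 1389 higher and 638 lower, against 1068 and 1240 as reported, and for the difference between the days 1675 and 2107, against 2191 and 1581. With the block and length trend together none of the 3 genes reported as lower was called (adjusted p = 0.0783 for *Eif4e*, 0.143 for *Eif4h* and 0.592 for *Eif4ebp1*), and *Eif4g3* lost its call as higher (0.102). Over all genes that fit called 544 higher and 593 lower at Day 2. With libraries left out, called genes at Day 2 numbered 1 to 3 higher and 1 to 5 lower, the 1 higher being without EtOH replicate 1. In EtOH, 1 gene was called higher from Day 2 to Day 4 with transcript lengths as offsets, and 1 to 3 with libraries left out. Values that changed sign were all small and uncalled. At Day 2 *Eif4a2* was 0.011 with the length trend removed and 0.010 with the block as well, *Eif4g1* was -0.035 in both and ran from -0.0075 (without OHT replicate 3) to 0.031 with libraries left out, and at Day 4 *Eif4g2* was 0.0095 with lengths as offsets. For the difference between the days *Eif4e* was -0.023 with total counts, -0.037 with the length trend removed, -0.036 with the block as well, and -0.037 to 0.056 over all alternatives, with -0.0085 and -0.0080 without Day 2 OHT replicate 3 and Day 4 EtOH replicate 3. *Eif4a1* ran there from -0.032 to 0.025 with libraries left out, the highest being without Day 4 EtOH replicate 1. For Day 4 against Day 2 in EtOH, *Eif4a1* was 0.0072 with total counts and -0.048 to 0.0061 with libraries left out (positive without Day 4 EtOH replicate 3), and *Eif4ebp2* was -0.055 to 0.10, being -0.055, -0.033 and -0.023 without Day 2 EtOH replicate 1, Day 4 EtOH replicate 2 and Day 4 EtOH replicate 3. The ratios kept their direction in expected counts and with each library left out. The cause of these changes was not tested.

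Same-numbered libraries of different groups were no more alike in their deviations than differently numbered ones. The correlation of deviations from the group means ran from -0.382 to 0.283 over 18 same-numbered pairs (median -0.0188). Over 36 differently numbered pairs it ran from -0.369 to 0.377 (median 0.0588). The numbers were therefore not taken as pairs, although deviations within a group cancel by construction, which makes this a weak check. With the replicate block, 3 genes were called higher and 2 lower at Day 2, *Eif4ebp1* being lost (adjusted p = 0.0895), and 2 higher and 4 lower at Day 4. Calls over all genes were fewer with the block as well. They were 657 higher and 649 lower at Day 2, against 1068 and 1240 as reported. At Day 4 they were 2013 higher and 1856 lower, against 2712 and 2502 as reported. *Eif4g3* and *Eif4ebp2*, the genes with the lowest counts, had the largest SE of the 10 genes in both OHT comparisons. In Day 2 EtOH *Eif4ebp2* had an SD of 145.0 at a mean of 1319 normalised counts, so the spread between libraries was wider than counting alone gives.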
